A study of Homo sapiens with 12 samples.

Results

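The response of chromatin to doxycycline (DOX) was compared between DU-145 and BT-549 cells, region by region, as the interaction between the line and DOX. Members were the accessible regions of the DU-145 table that held at least 1 bin of 100 bp with the same chromosome and start in the BT-549 table, and each was read at 1 such bin, the bin with the highest mean scaled value over the 12 libraries. The rule gave 31661 regions of 79177 in DU-145, and all 31661 were tested. The BT-549 table held 46298 regions, and 321392 bins were common to both tables.

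ATAC-seq, in which the Tn5 transposase inserts adapters preferentially into open chromatin, was performed with 3 replicates in each of 4 groups. DU-145 is an established castration-resistant prostate cancer (CRPC) line and BT-549 an established triple-negative breast cancer (TNBC) line. All 4 groups carried a tetracycline-inducible MUC1 shRNA. The vehicle groups of both lines received 0.1% DMSO, and some labels call them untreated. The DOX groups of both lines received DOX, which turns on the hairpin. Each line was 1 cell line with 1 hairpin, and a control hairpin was not analysed here, so that MUC1 silencing and DOX itself cannot be told apart. Accessible regions overlapped promoters of all 7 epithelial marker genes in DU-145 vehicle and of all 7 mesenchymal marker genes in BT-549 vehicle (6 of 7 of the latter in DU-145 vehicle and 5 of 7 in DU-145 DOX), with a MACS2 peak within 1 kb of the transcription start site (TSS) in at least 2 of 3 libraries. KLK3 and KLK2, which define prostate luminal cells, had no peak in either line, as had the leukocyte markers PTPRC and CD3E. The breast luminal markers had such peaks in 5, 5, 4 and 3 of 5 genes and the endothelial markers in 2, 1, 1 and 0 of 4 genes, in DU-145 vehicle, DU-145 DOX, BT-549 vehicle and BT-549 DOX. No epithelial marker had a peak in 2 of 3 BT-549 DOX libraries, against 4 of 7 in BT-549 vehicle. The BT-549 DOX libraries were also the shallowest, with a summed coverage of 2502510 to 3267024 against 9142900 to 25232000 in the other 9 libraries and a median value of 5.92 to 7.45 fragments per chosen bin against 21.8 to 59.02. Replicates correlated across regions with a Pearson r of 0.969 to 0.977 (DU-145 vehicle), 0.971 to 0.977 (DU-145 DOX), 0.945 to 0.96 (BT-549 vehicle) or 0.815 to 0.838 (BT-549 DOX). The labels do not say whether replicates were separate cultures, and p-values measure the spread between these libraries only. At the better covered regions, squared differences between 2 replicates were 0.838 to 1.15 times those expected from counting alone. The p-values thus hold little beyond counting error.

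MUC1 encodes a transmembrane mucin whose cytoplasmic MUC1-C subunit acts in the nucleus of carcinoma cells with transcription factors and chromatin remodelers. Regions far from a TSS in epithelial and mesenchymal cancer cells are often enhancers, and many carry the binding sequence of AP-1, a dimer of JUN and FOS family factors. Genes of the type I interferon response are switched on by interferon regulatory factors (IRFs), which bind runs of GAAA in their promoters, and their partner STAT2.

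The sequences of a few regions with opposite responses or responses in 1 line only, chosen because they hold the AP-1 letters, are given first, as the hg38 (GRCh38) reference plus strand over the 100 bp bin and 50 bp on both sides. Capitals mark the AP-1 letters TGACTCA or TGAGTCA, which were present in 17.1% of the 31661 windows of that length and in 11 of the 24 bins named by the rule for classes. The regions near TAPT1 and CDK6 opened in DU-145 and closed in BT-549, that near BOD1L1 closed in DU-145 and opened in BT-549, that in TMIGD3 opened in DU-145 only, that in TGFBR2 opened in BT-549 only and that in TEX48 closed in BT-549 only.
TAPT1 chr4:16253651-16253850: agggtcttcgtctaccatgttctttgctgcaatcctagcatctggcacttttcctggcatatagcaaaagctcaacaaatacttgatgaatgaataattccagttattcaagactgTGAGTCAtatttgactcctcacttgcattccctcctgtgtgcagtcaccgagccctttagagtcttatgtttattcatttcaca
CDK6 chr7:92752351-92752550: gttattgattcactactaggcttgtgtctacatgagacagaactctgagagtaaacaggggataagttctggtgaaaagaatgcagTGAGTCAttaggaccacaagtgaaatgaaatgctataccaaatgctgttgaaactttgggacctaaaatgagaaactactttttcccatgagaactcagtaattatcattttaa
BOD1L1 chr4:13701951-13702150: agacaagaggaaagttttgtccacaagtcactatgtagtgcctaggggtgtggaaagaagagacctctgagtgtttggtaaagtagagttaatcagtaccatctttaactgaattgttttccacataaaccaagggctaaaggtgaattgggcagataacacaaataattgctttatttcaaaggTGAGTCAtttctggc
TMIGD3 chr1:111553251-111553450: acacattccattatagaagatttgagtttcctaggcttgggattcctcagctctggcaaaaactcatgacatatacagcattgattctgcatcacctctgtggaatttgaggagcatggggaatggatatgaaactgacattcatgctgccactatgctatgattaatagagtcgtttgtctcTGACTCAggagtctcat
TGFBR2 chr3:30625951-30626150: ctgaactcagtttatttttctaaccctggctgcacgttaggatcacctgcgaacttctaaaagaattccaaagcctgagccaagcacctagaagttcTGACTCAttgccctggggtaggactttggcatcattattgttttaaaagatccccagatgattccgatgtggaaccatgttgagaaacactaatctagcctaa
TEX48 chr9:114677451-114677650: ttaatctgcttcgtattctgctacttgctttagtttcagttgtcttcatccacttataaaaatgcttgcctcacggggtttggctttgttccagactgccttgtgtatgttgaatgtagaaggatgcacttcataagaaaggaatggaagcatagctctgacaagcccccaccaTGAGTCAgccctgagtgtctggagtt

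For interferon response genes, short stretches of 30 bases are given with the IRF letters in capitals, namely GAAA, any 2 bases and GAAA, read on either strand (a longer capital run holds overlapping matches). These letters were present in 2.55% of all windows. The stretches come from promoter regions that closed in BT-549 and did not pass the test in DU-145. The letters were present in 18 of all 73 tested windows near interferon response genes (24.7%) and in 8 of the 31 among them where the BT-549 effect was called below the DU-145 effect (25.8%).
ISG15 chr1:1013377-1013406: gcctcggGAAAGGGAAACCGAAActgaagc
OAS2 chr12:112978511-112978540: tagacttcagTTTCAGTTTCctggctctgg
RSAD2 chr2:6877622-6877651: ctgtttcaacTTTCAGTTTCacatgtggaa
MX1 chr21:41420559-41420588: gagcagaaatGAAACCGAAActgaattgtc

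A positive interaction denotes a DOX effect that was higher in BT-549 than in DU-145, on the log2 scale, and a negative one the reverse. A region was called when the interaction had an adjusted p under 0.05 in edgeR's quasi-likelihood test and a size of at least 1. The BT-549 effect lay above the DU-145 effect in 1745 regions (5.51%) and below it in 4627 regions (14.6%). With a correction of the coverage trend, in which loess curves removed within each line the dependence of library differences on coverage, the calls were 1212 above (3.83%) and 3555 below (11.2%). The same regions were called with and without the correction in 992 cases above and 3366 below. The share of calls in the upper direction was 27.4% with TMM, 14% with library totals and 38.2% after thinning all libraries to the same depth. The median interaction over all regions was -0.03 with TMM, -0.05 with the trend correction, -0.23 with library totals and -0.15 with a correction for GC content.

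Opposite responses were those with adjusted p under 0.05 in the interaction and in both lines, of opposite sign and at least 0.5 in each line. Responses in 1 line only had a size of at least 1 and adjusted p under 0.05 in that line, a size under 0.5 and no call in the other, and an adjusted p under 0.05 in the interaction. Opening in DU-145 with closing in BT-549 was found at 716 regions (2.26%), and the reverse at 204 regions (0.644%). Opening in DU-145 only was found at 994 regions (3.14%) and closing in DU-145 only at 97 regions (0.306%). Opening in BT-549 only was found at 423 regions (1.34%) and closing in BT-549 only at 769 regions (2.43%). With the trend correction the 6 classes held 568 (1.79%), 79 (0.250%), 769 (2.43%), 125 (0.395%), 395 (1.25%) and 652 regions (2.06%), in the same order. The regions in the same class both ways numbered 480, 64, 643, 81, 275 and 445. After thinning, which also left fewer regions to test, the opposite classes held 113 and 53 regions and the responses in 1 line only 327 in DU-145 and 491 in BT-549. Leaving out any 1 of the BT-549 DOX libraries left 80 to 88 regions in the reverse class (closing in DU-145, BT-549 opening), and leaving out a BT-549 vehicle library left 106 to 113. When the 95% interval in the other line had to lie within -1 to 1, responses in DU-145 only numbered 644 in place of 1091. A further 3248 called regions belonged to none of the classes, of which 303 moved significantly in the same direction in both lines and by unequal amounts.

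**Figure D1:**
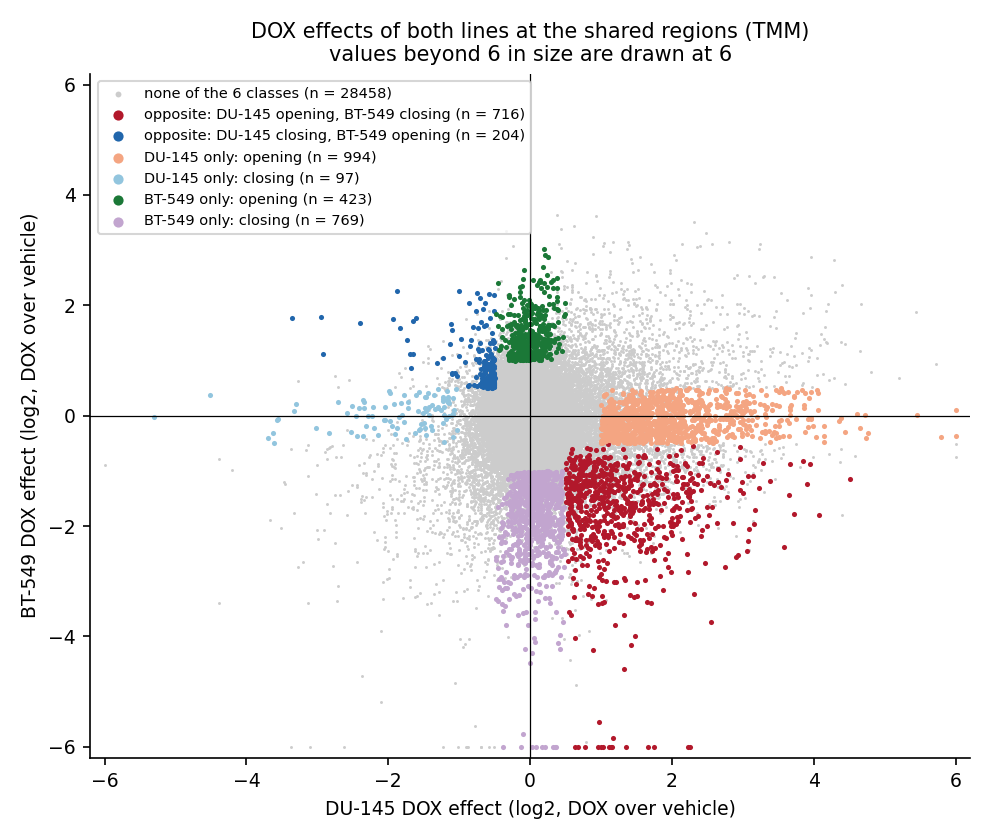
DOX effect in BT-549 (vertical, log2) against that in DU-145 (horizontal, log2) for the 31661 regions with TMM scaling, with the 6 classes in color. Regions opening in DU-145 but closing in BT-549 (716) lie in the lower right and outnumber those of the reverse kind (204) in the upper left. Nearly all tested regions had a peak in BT-549 vehicle, which limits this comparison.

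The interaction varied with coverage. In 8 groups of regions of equal size ordered by mean coverage, the median interaction went from -0.64 in the lowest to 0.556 in the highest with TMM, and from -0.111 to 0.039 with the trend correction, where its range over the 8 groups was -0.201 to 0.069. Promoters, within 1 kb of a TSS, made up 10.3% of the lowest group and 80.3% of the highest, so that coverage and position moved together. Calls above fell from 10.7% to 1.67% in the highest group on correction, and calls below from 17.3% to 7.68% in the lowest. Promoters had a median interaction of 0.40, or 0.15 with the correction, and regions beyond 3 kb one of -0.50, or -0.34 with the correction. Of 12272 promoters, 8.46% were called above and 1.82% below (4.19% and 1.39% with the correction). Of 17544 regions beyond 3 kb, 3.64% were called above and 23.8% below (3.55% and 18.4% with the correction). What part depth has in the trend was not tested.

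**Figure D2:**
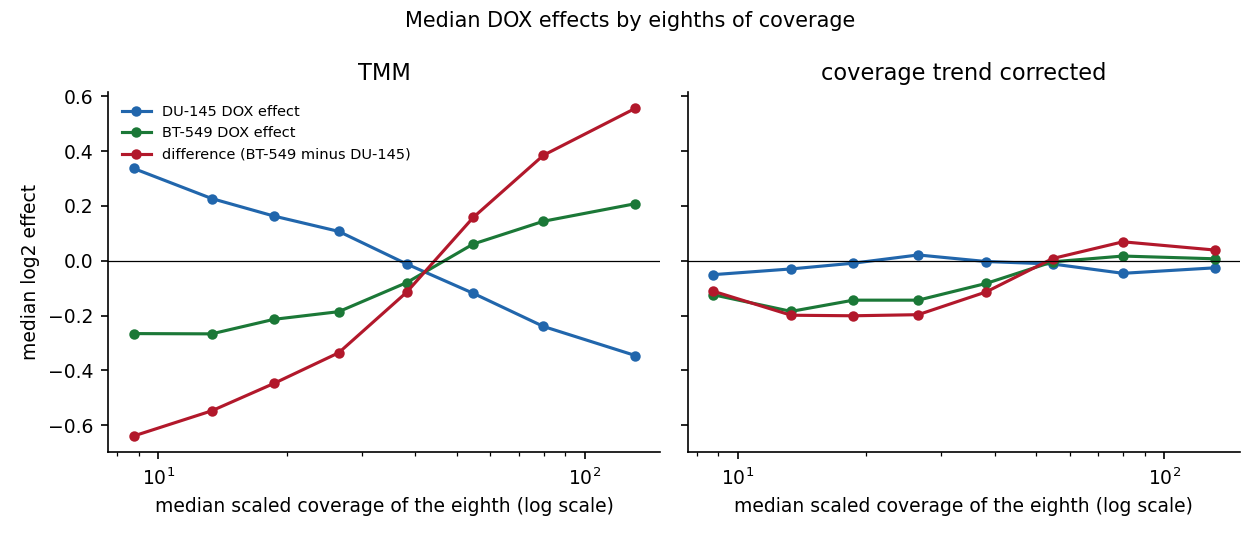
Median log2 difference in 8 groups of regions ordered by coverage, without and with the trend correction. The interaction runs from -0.64 to 0.556 without the correction and stays between -0.201 and 0.069 with it.

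Regions that opened in DU-145 and closed in BT-549 were distal: 2.65% were promoters, against 38.8% of all tested regions, and the median distance to a coding TSS was 34770 bp, against 5694 bp. The scaled coverage given for each bin below is its mean number of overlapping fragments per base, scaled to a library of the mean depth of the 12. TAPT1 encodes a membrane protein linked to the primary cilium. The bin chr4:16253701-16253800, 27279 bp upstream of its TSS and intergenic, had a scaled coverage of 6.17, 7.7 and 5.28 in DU-145 vehicle and 32.8, 29 and 33.4 in DU-145 DOX. It had 11.4, 13.1 and 16.2 in BT-549 vehicle against 0, 1.31 and 0 in BT-549 DOX. The bins named for each class were chosen for a large interaction and for vehicle and DOX libraries that do not overlap in a responding line, so that both are descriptions here. The interaction was -8.95 ± 1.19 (SE; adjusted p = 1.53e-09), or -8.46 with the trend correction. The SE here and below is the size of the effect over the square root of its quasi-likelihood F statistic. It is not a standard error taken from the fit. The rounded values in BT-549 DOX summed to 0, so the fitted size and this SE depend on the prior count. Against a floor of 3 counts over the group, coverage was at least 3.14-fold lower in BT-549 DOX than in BT-549 vehicle. A MACS2 peak overlapped the bin in 2 of 3 libraries of DU-145 vehicle, in all 3 of DU-145 DOX and BT-549 vehicle and in none of BT-549 DOX, and peak calling depends on depth.

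NUDT21 encodes a subunit of the factor that cleaves pre-mRNA before polyadenylation. The bin chr16:56477201-56477300, 25051 bp upstream of its TSS and in an exon of other genes (BBS2 and OGFOD1 among its hosts), had 10.6, 8.49 and 7.64 in DU-145 vehicle and 20.9, 23.7 and 25 in DU-145 DOX. In BT-549 it had 12.1, 19.6 and 16.9 with vehicle and 0, 0.905 and 1.42 with DOX, again at least 3.78-fold lower by the same floor. AOAH, which inactivates bacterial lipopolysaccharide, held an intronic bin with 43.8, 42.6 and 55.9 in BT-549 vehicle against 2.13, 0 and 1.13 in BT-549 DOX, at least 11.1-fold lower. Its DU-145 values were low, with 0.676, 5.41 and 2.32 in vehicle and 11.4, 9.86 and 11.5 in DOX. Near HUWE1, a ubiquitin ligase, BT-549 coverage was at least 4.98-fold lower with DOX. Such empty groups were common in this class, since 118 of its 716 regions had a sum of at most 3 counts over the 3 BT-549 DOX libraries, against 1132 of all 31661 regions.

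Opposite responses of the same kind were also found at bins named from the gene lists. CDK6 encodes a cyclin-dependent kinase of G1. Its intronic bin chr7:92752401-92752500, 81467 bp downstream of the TSS, went from 7.45, 11.1 and 11.3 to 49.5, 49.7 and 34.9 in DU-145 and from 35.7, 47.8 and 56.1 to 17.3, 7.28 and 17.9 in BT-549. The groups did not overlap within either line, and the interaction was -3.70 ± 0.41 (SE; adjusted p = 1.7e-12), or -3.52 with the correction. DUSP5 is a nuclear phosphatase of ERK, and the bin chr10:110512901-110513000, 15043 bp downstream of its TSS, went from 20.2, 27.6 and 23.8 to 81.3, 79 and 75.2 in DU-145 and from 26.2, 25.1 and 27.8 to 7.69, 4.52 and 3.89 in BT-549, with an interaction of -3.88 ± 0.50 (SE; adjusted p = 4.43e-10). A bin near CXCL2, a chemokine gene, went from 2.83, 3.39 and 4.81 to 14.1, 17.5 and 12.5 in DU-145 and from 53.9, 58.2 and 57.7 to 17.4, 24.3 and 21.6 in BT-549. The DU-145 effect at CXCL2 was 2.07, the BT-549 effect -1.42 and the interaction -3.49 ± 0.45 (SE; adjusted p = 7.32e-10). Bins of the same class, with and without the correction, lay near WWTR1 (the Hippo effector TAZ; interaction -3.38), NOTCH2 (-2.85), OCLN (a tight junction protein; -2.07), TJP1 (a tight junction scaffold; -3.91), EGFR (-1.38), TP63 (-2.36), POU5F1 (-2.75), COL5A2 (a fibrillar collagen; -2.21) and WNT2B (-2.27).

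Regions that closed in DU-145 and opened in BT-549 were mostly promoters, 68.6% of 204. This class shrank most on correction, and of the 64 regions that stayed in it 42.2% were promoters. VPS13D encodes a lipid transfer protein. Its intronic bin chr1:12454801-12454900, 10090 bp upstream of the nearest coding TSS of the gene, had 34.1, 45 and 35.4 in DU-145 vehicle and 5.52, 3.38 and 2.7 in DU-145 DOX. In BT-549 it had 11.7, 6.56 and 11.3 with vehicle and 35.3, 30.7 and 38.1 with DOX. The interaction was 5.13 ± 0.50 (SE; adjusted p = 1.12e-14), or 5.41 with the correction. BOD1L1 protects stalled replication forks, and the intergenic bin chr4:13702001-13702100, 74325 bp upstream of its TSS, went from 70.7, 67 and 66.8 to 12.8, 8.34 and 6.72 in DU-145 and from 21.2, 22.6 and 23 to 52.6, 41.2 and 48.2 in BT-549. The interaction at BOD1L1 was 4.04 ± 0.39 (SE; adjusted p = 6.67e-15). ACTN4, an actin crosslinker, had an intronic bin at chr19:38649901-38650000 with 46.8, 52.9 and 59 and then 13.7, 14.8 and 14.1 in DU-145, and 4.71, 7.98 and 11.7 and then 42.5, 44.6 and 29.2 in BT-549. Its interaction was 4.14 ± 0.45 (SE; adjusted p = 7.12e-13).

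The promoter bin of SEMA4B, a membrane-bound semaphorin, kept this class on correction. It lay at chr15:90185001-90185100, 87 bp downstream of the TSS and in an exon. DU-145 had 194, 181 and 170 with vehicle and 66.7, 75.7 and 75.1 with DOX, and BT-549 46.6, 52.5 and 53 and 94.3, 94 and 103. The interaction was 2.27 ± 0.24 (SE; adjusted p = 4.33e-13), or 1.89 with the correction. The promoter of ERRFI1, an inhibitor of EGFR family receptors, also stayed in the class (1.47, and 1.17 with the correction). The promoter of ITGA3, an integrin subunit, and a bin 2056 bp upstream of the TSS of ARID2, a PBAF subunit, were in the class with TMM alone (2.04 and 1.14). A bin in PTP4A3, a tyrosine phosphatase, had an interaction of 3.36 ± 0.66 (SE; adjusted p = 2.33e-05) at low coverage.

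Regions that opened in DU-145 only were distal, with 3.22% promoters and a median distance of 46065 bp. TMIGD3 held the bin chr1:111553301-111553400, intronic both in this gene and in RAP1A, a small GTPase. DU-145 vehicle had 0, 1.19 and 0 and DU-145 DOX 37.2, 20.3 and 31.9. The rounded sums were 2 and 131, a ratio of 54.2 after scaling (95% counting interval 14.7 to 452). BT-549 had 14.4, 9.7 and 8.21 with vehicle and 10.7, 0.724 and 20.3 with DOX, and these groups overlapped. The BT-549 effect of 0.01 had a 95% interval of -1.09 to 1.11. A peak overlapped the bin in 2 BT-549 vehicle libraries and 1 BT-549 DOX library. DUSP1 encodes a phosphatase of MAP kinases. The bin chr5:172801301-172801400, 30155 bp upstream of its TSS, went from 4.36, 3.72 and 4.02 to 66.1, 54.6 and 62.1 in DU-145, while BT-549 had 12.4, 16.3 and 17.9 with vehicle and 16.4, 0 and 19.7 with DOX. The BT-549 effect of -0.30 had a 95% interval of -1.26 to 0.66. A peak overlapped the bin in 3 BT-549 vehicle libraries and 0 BT-549 DOX libraries. At TMIGD3 and DUSP1 a BT-549 change of 1 is thus not excluded. The interaction was -4.17 ± 0.52 (SE; adjusted p = 1.72e-10), or -3.91 with the correction. ITGA5, the alpha subunit of the main fibronectin receptor, had an intronic bin at chr12:54411501-54411600 that went from 18.1, 20.3 and 17.1 to 149, 142 and 136 in DU-145. The BT-549 values there were 21.2, 20.7 and 25.5 with vehicle and 22.7, 37.1 and 29.9 with DOX, an effect of 0.42 that did not pass the test, and the interaction was -2.48 ± 0.35 (SE; adjusted p = 1.31e-08).

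Other bins opened in DU-145 only near CLMP and in LARP6 at the LRRC49 promoter (-4.12 and -3.98), near SMURF2, a ubiquitin ligase of TGF-beta signaling (-2.34), and near NFKBIZ, a nuclear IkB protein (-3.93). At LTBP1, which stores latent TGF-beta, the class held with TMM alone, with an interaction of -2.82 and -2.73 with the correction. Regions that closed in DU-145 only were few. CRYGN, a lens crystallin gene, held the bin chr7:151428801-151428900 with 83.1, 79.2 and 88.9 in DU-145 vehicle and 1.65, 1.61 and 2.56 in DU-145 DOX. BT-549 had 19.2, 12.2 and 26.7 and 26.2, 14.1 and 14.3, which overlapped, and the interaction was 5.27 ± 0.67 (SE; adjusted p = 3.16e-10). A second bin of SEMA4B, 10270 bp upstream of its TSS, also closed in DU-145 only, from 30.2, 23.9 and 22 to 3.35, 1.04 and 3.4, with 61.6, 57.3 and 46.8 and 54.9, 87.3 and 59.2 in BT-549. Its interaction was 3.52 ± 0.42 (SE; adjusted p = 4.82e-11). Bins in TG, the thyroglobulin gene, and near CLINT1, a clathrin adaptor, had interactions of 3.49 and 3.29 with BT-549 DOX values of 19.6, 0.362 and 3.64 and of 7.42, 1.9 and 5.53. Without BT-549 DOX replicate 1 the interactions at TG (1.69) and CLINT1 (2.77) no longer passed, and neither did CLINT1 without BT-549 DOX replicate 3 (2.94).

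Regions that opened in BT-549 only were promoters in 52.5% of 423 cases, with a median distance of 456 bp. TGFBR2 encodes the type II TGF-beta receptor. Its intronic bin chr3:30626001-30626100, 19449 bp downstream of the TSS, had 6.97, 5.78 and 0.894 in BT-549 vehicle against 54.7, 25.5 and 18.6 in BT-549 DOX. DU-145 had 59.6, 55 and 42.5 with vehicle and 47.2, 54.8 and 47.3 with DOX, which overlapped. The interaction was 2.72 ± 0.48 (SE; adjusted p = 3.01e-06), or 2.75 with the correction. BCAR3, an adaptor in adhesion signaling, had an intronic bin at chr1:93779901-93780000 with 28.6, 30.7 and 27 in BT-549 vehicle, a mean of 148 ± 50.4 (SD, n = 3) in BT-549 DOX, 122, 130 and 118 in DU-145 vehicle and 113, 114 and 119 in DU-145 DOX. The interaction was 2.46 ± 0.23 (SE; adjusted p = 1.95e-15). PADI3, a peptidylarginine deiminase of hair follicle and skin, had an intronic bin with 5.3, 4.22 and 7.73 in BT-549 vehicle against 27.4, 44.9 and 46.1 in BT-549 DOX, and an interaction of 2.63 ± 0.47 (SE; adjusted p = 5.04e-06). The distal bin near BZW1 (2.48) and the promoters of MARK2, a polarity kinase (1.70), and NRP1, a semaphorin and VEGF coreceptor (1.91), belonged to the class both ways. The bin near AMOTL2, a binder of YAP, did so with TMM alone (2.69, and 2.64 with the correction).

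Regions that closed in BT-549 only were distal, with 9.23% promoters. HLF encodes a transcription factor of the PAR bZIP family, and its intronic bin chr17:55276601-55276700 had 20, 24.4 and 21.8 in BT-549 vehicle and 0 in all 3 BT-549 DOX libraries, at least 5.31-fold lower. DU-145 had 16, 15.4 and 13.7 with vehicle and 19.8, 10.7 and 17.6 with DOX. TEX48 held the intronic bin chr9:114677501-114677600, with 30.3, 33 and 39.6 in BT-549 vehicle against 0.0453, 2.17 and 3.02 in BT-549 DOX. The rounded sums there were 100 and 1, a scaled ratio of 24.1 (95% counting interval 4.23 to 962), while DU-145 kept 38.5, 43.8 and 40.2 with vehicle and 42.3, 43.5 and 37 with DOX, which overlapped. The bin near KLHDC7B had sums of 84 and 1, a ratio of 20.3 (3.54 to 810), and that in PDE4B, a cyclic AMP phosphodiesterase, 78 and 1, a ratio of 18.8 (3.28 to 752). Better covered was the bin chr7:22718301-22718400, 7534 bp upstream of the TSS of IL6, a cytokine, and within STEAP1B. It had 203, 204 and 218 in BT-549 vehicle, then 31.5, 59.4 and 60.1 in BT-549 DOX, 64.8, 55.6 and 52.2 in DU-145 vehicle and 45.5, 50.4 and 58.8 in DU-145 DOX, with an interaction of -1.86 ± 0.25 (SE; adjusted p = 2.17e-09). In all, 160 of the 769 regions of this class had at most 3 counts over the BT-549 DOX libraries.

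**Figure D3:**
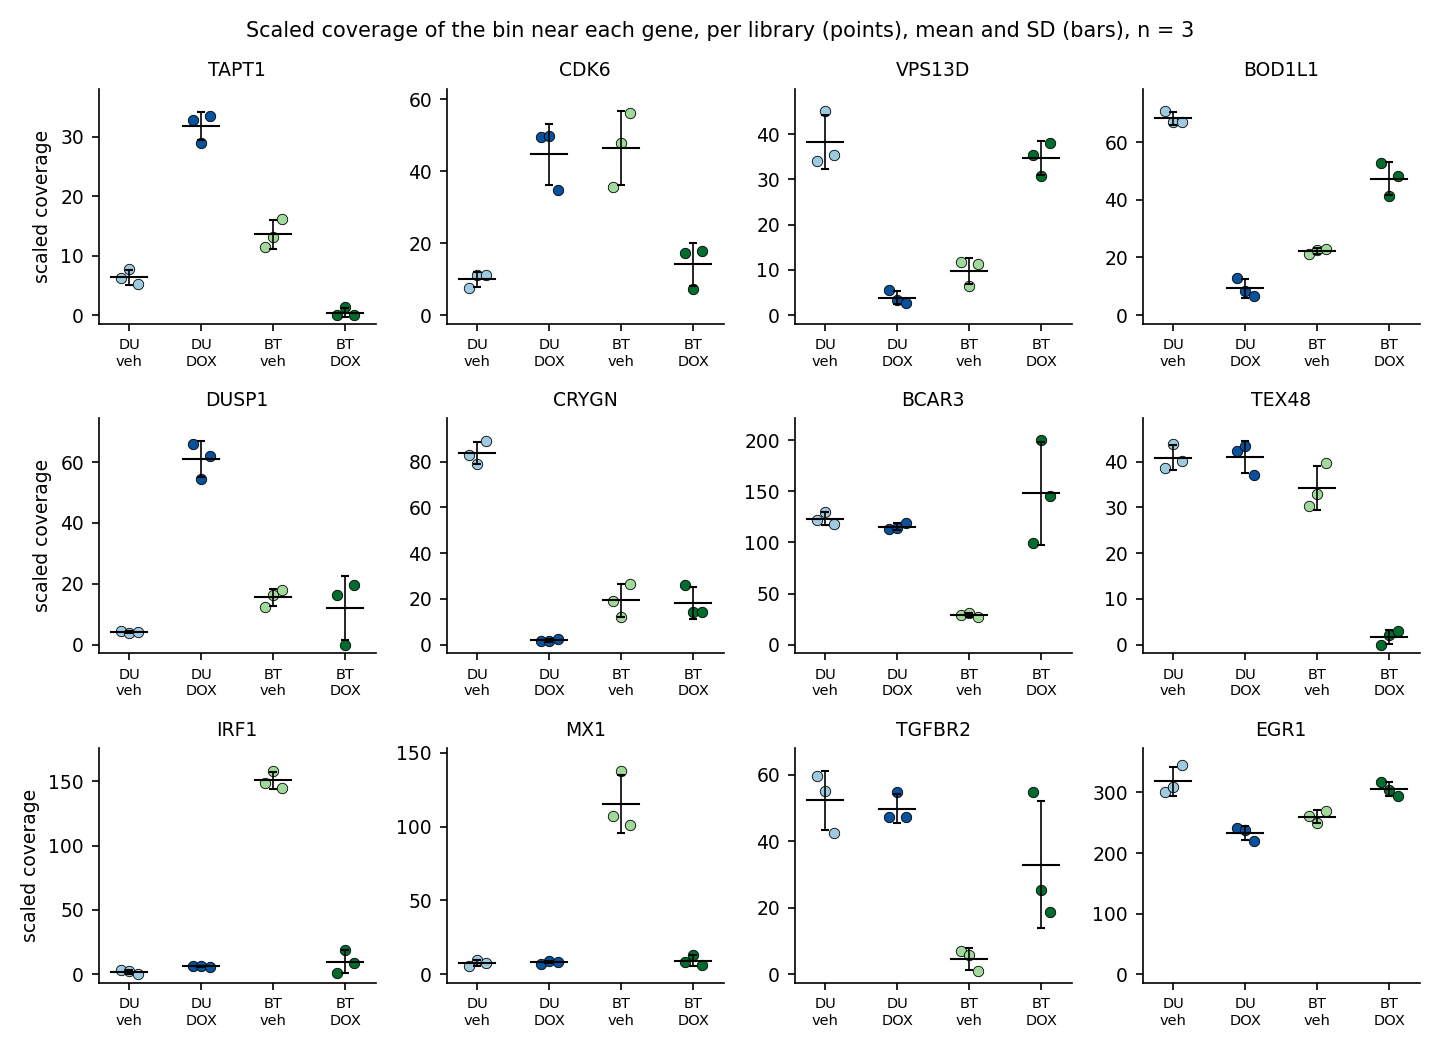
Scaled coverage of the chosen bin near 12 genes in each of the 12 libraries (points), with mean and SD (bars, n = 3 per group). CDK6 and TAPT1 move in opposite directions in the 2 lines. DUSP1 and CRYGN are classed as responding in DU-145 only, and BCAR3, TGFBR2, TEX48 and MX1 in BT-549 only. The class does not exclude a change in the other line.

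The share of windows that held a motif varied between the classes. Motifs were searched on both strands in windows of 200 bp, and the motif list was chosen with results known. Among regions beyond 3 kb, AP-1 letters (TGACTCA or TGAGTCA) were present in 27.2% of all 17544. They were present in 43.9% of those opening in DU-145 but closing in BT-549, 40.9% of those opening in DU-145 only and 42.3% of those closing in BT-549 only. In contrast, 15.4% of the distal regions closing in DU-145 only (12 of 78) had them, and 33.3% (19 of 57) and 35.6% (64 of 180) of those opening in BT-549 with and without closing in DU-145. Distal regions with AP-1 letters had a median interaction of -0.87 and 36.7% of calls below, against -0.40 and 18.9% without them. With the trend correction the figures were -0.76 and 30.8% against -0.21 and 13.8%.

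Shares of further letters are also given for regions beyond 3 kb. The TEAD letters ACATTCC or GGAATGT, bound by the partners of YAP and TAZ, were present in 5.6% of all of them and in 11.2% of those opening in DU-145 but closing in BT-549. In the other classes the TEAD share was 5.26% to 8.09%. The RUNX letters TGTGGTT or AACCACA were present in 7.27% of all and 13.4% of those opening in DU-145 only. The opposite classes had 11.8% (BT-549 closing) and 12.3% (BT-549 opening, 7 of 57). The remaining classes had 9.52% (BT-549 only closing), 7.69% (DU-145 only closing) and 5.56% (BT-549 only opening). The IRF letters were present in 6.71% of distal regions closing in BT-549 only, against 2.99% of all. An E-box, CACCTGC or GCAGGTG, of the kind bound by ZEB and SNAI repressors, was present in 5.53% of all distal regions, 11.7% of those opening in BT-549 only (21 of 180) and 1.83% of those opening in DU-145 only. These are matches of letters and not measured binding. The classes also differed in base composition, given here for regions at any distance from a TSS. The median GC content was 58% over all tested regions. It was 45% for DU-145 only opening, 51% for DU-145 only closing and 48% for BT-549 only closing. The 2 opposite classes had 46% (BT-549 closing) and 64% (BT-549 opening), and BT-549 only opening had 63%. Whether the motif shares follow base composition was not tested.

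**Figure D4:**
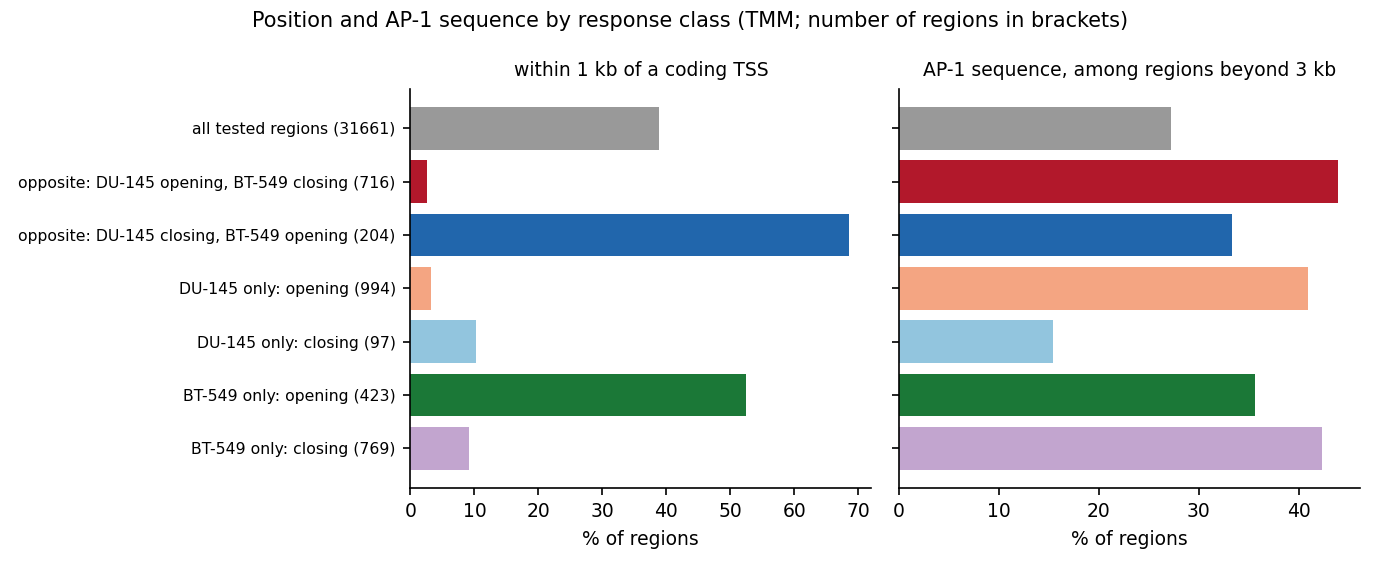
Share of promoters and share of distal regions with AP-1 letters (percent) in all tested regions and in the 6 classes. The classes with opening in BT-549 hold 68.6% and 52.5% promoters, and those with opening in DU-145 or closing in BT-549 hold at most 9.23%.

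Of 73 regions near type I interferon response genes, 29 closed in BT-549 and 1 closed in DU-145 by at least 1 on the log2 scale. Regions were assigned to the nearest coding TSS within 100 kb, which held for 28241 regions and 13803 genes. Of 34 genes in the list, 29 had a region. The BT-549 effect was called below the DU-145 effect at 31 of them (42.5%) near 16 genes, against 12.6% of all 28241 regions, and above it at 4 (5.48%), against 5.66%. With the trend correction 22 were called below (30.1%, against 9.59%) and 4 above (5.48%, against 3.77%), and 20 were called below both ways. The median interaction was -1.22, or -0.86 with the correction, against 0.03 and -0.02 over all regions within 100 kb. The 29 regions that closed in BT-549 made up 39.7%, against 6.50% of all, and 1 opened (1.37%, against 3.42%). In DU-145, 6 opened (8.22%, against 8.66%) and 1 closed (1.37%, against 1.94%). Of the 34 promoters, 13 were called below (38.2%, against 1.82% of all promoters), and of the 39 other regions 18 (46.2%, against 20.9%). The list was chosen with earlier results of these data known.

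ISG15 encodes a ubiquitin-like protein that is conjugated to other proteins after interferon. Its promoter bin chr1:1013401-1013500, 47 bp upstream of the TSS, had 149, 171 and 160 in BT-549 vehicle against 53.8, 42.3 and 37.7 in BT-549 DOX. DU-145 had 31.4, 35.6 and 46.4 with vehicle and 35.2, 36.1 and 35.6 with DOX. The BT-549 groups did not overlap, the DU-145 groups did, and the interaction was -1.83 ± 0.28 (SE; adjusted p = 9.46e-08), or -1.96 with the correction. OAS2 synthesizes the 2′-5′ oligoadenylates that activate RNase L. Its promoter bin chr12:112978401-112978500 went from 125, 108 and 109 to 11.6, 18.7 and 31.6 in BT-549, while DU-145 had 4.41, 10.3 and 13.4 with vehicle and 9.91, 10.8 and 10.7 with DOX. The interaction was -2.50 ± 0.43 (SE; adjusted p = 1.79e-06). RSAD2 (viperin) had a promoter bin at chr2:6877601-6877700 with 68.2, 50.5 and 67.6 and then 12.6, 4.52 and 10.9 in BT-549, 12.9, 14.6 and 6.19 and then 11.8, 15.8 and 15.6 in DU-145, and an interaction of -2.92 ± 0.49 (SE; adjusted p = 8.42e-07).

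MX1, a dynamin-like GTPase that blocks viruses, had 3 regions called below. Its intronic bin chr21:41460601-41460700 went from 107, 138 and 101 to 7.97, 13.3 and 6 in BT-549, with 5.65, 9.52 and 7.46 and 7.24, 8.68 and 8.09 in DU-145, and an interaction of -3.62 ± 0.53 (SE; adjusted p = 2.49e-08). The promoter bin with the IRF letters had 81.9, 82.9 and 92.9 in BT-549 vehicle, then 5.25, 29.4 and 31 in BT-549 DOX and an interaction of -1.67 ± 0.35 (SE; adjusted p = 6.88e-05). IRF1 encodes a transcription factor of the family that binds those letters. A bin in its gene at chr5:132481701-132481800, 2747 bp downstream of the TSS, had a mean of 151 ± 6.56 (SD, n = 3) in BT-549 vehicle and 1.18, 19 and 8.62 in the BT-549 DOX libraries, and went from 3.31, 2.31 and 0.236 to 6.05, 6.3 and 5.89 in DU-145. Its interaction was -5.58 ± 0.66 (SE; adjusted p = 2.14e-11), or -4.98 with the correction. By contrast, an IRF1 promoter bin at chr5:132490801-132490900 had an interaction of 0.99 (adjusted p = 1.09e-06), just under the size for a call. With the correction it was 0.45 (adjusted p = 0.0341). The intronic bin of the IFIT2 region at chr10:89310201-89310300 had 66.5, 55.7 and 71.7 in BT-549 vehicle, then 7.29, 1.99 and 3.64 in BT-549 DOX and an interaction of -4.74 ± 0.73 (SE; adjusted p = 9.95e-08).

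Some regions of the list went the other way or did not differ. A distal bin near IFI44, at chr1:78692201-78692300, opened in BT-549 from 16, 11.3 and 17 to 108, 88 and 89.1, and in DU-145 from 74.9, 70.5 and 61.8 to 116, 98.9 and 104, with an interaction of 2.06 ± 0.29 (SE; adjusted p = 6.68e-09). The IFIT1 promoter was at -0.25 (adjusted p = 0.7). The count was lower at equal depth: after thinning, 7 of the 45 regions still tested were called below, against 1588 of all 26875 regions still tested. With DESeq2 the counts were 21 of 73, against 3554 of all 31661. Leaving out 1 library at a time left 24 to 31 called below, the lowest without BT-549 DOX replicate 2 or 3. Leukocyte markers other than CD14 had no peak in 2 of 3 libraries of any group.

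**Figure D5:**
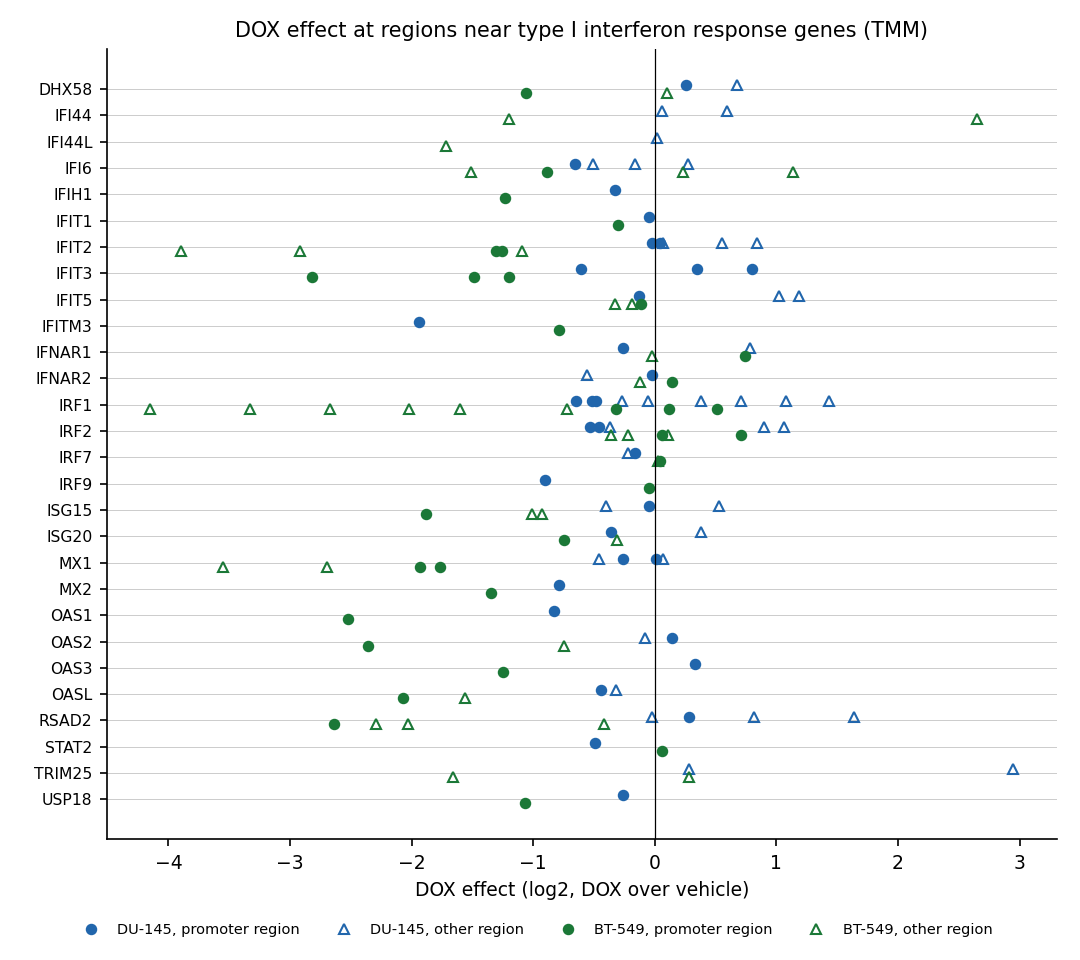
DOX effect (log2, horizontal) in DU-145 (blue) and BT-549 (green) at 68 of the 73 regions, near 28 interferon response genes, with promoters as circles and other regions as triangles. The BT-549 points have a median of -1.04 and the DU-145 points one of -0.02.

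The other lists held calls in both directions. Near NF-kB and chemokine genes 17 of 65 regions were called below (26.2%) and 7 above, and with the correction 12 and 2. Of all regions within 100 kb of a TSS 12.6% were called below and 5.66% above. Of promoters 1.82% were called below, and of regions outside promoters 20.9%. Promoters made up 43.5% of all those regions and 24.6% of this list. The median interaction of this list was -0.22, or -0.13 with the correction. Of regions near factors of epithelial-mesenchymal transition (EMT) and mesenchymal genes, 15 of 60 were called below (25%; 26.7% of the list were promoters) and 1 above, or 10 (16.7%, against 9.59% of all) and 1 with the correction, with a median of -0.46, or -0.47 with the correction. Among them was a bin near ZEB2, an EMT repressor of CDH1, that went from 43.7, 35.6 and 50.6 to 9.64, 10 and 13.9 in BT-549, with 10.7, 12.9 and 12.4 and 17.4, 18.6 and 16.2 in DU-145 and an interaction of -2.43 ± 0.46 (SE; adjusted p = 2.58e-05). Near TNC, a matrix protein, a bin had 3.7, 2.99 and 4.64 in DU-145 vehicle and 20.3, 13.1 and 12.4 in DU-145 DOX, and an interaction of -3.03 ± 0.53 (SE; adjusted p = 2.31e-06). The bin near VIM, an intermediate filament gene, was called with TMM (-1.64) and with the coverage trend correction (-1.32), and not with the GC correction (-1.03).

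Near TGF-beta and BMP genes 23 of 100 regions were called below and 10 above (17 and 8 with the correction), and near cell polarity genes 21 of 100 and 5 (16 and 5). The shares called below were 23% and 21%, against 12.6% of all regions within 100 kb, and those above 10% and 5%, against 5.66%. Promoters made up 35% and 29% of these lists and 43.5% of all those regions. Of all promoters 1.82% were called below, and of regions outside promoters 20.9%. A share matched for position was not computed. RAC1, a GTPase of the cytoskeleton, had an intronic bin that went from 96.5, 93.1 and 85.5 to 25.3, 27.8 and 17.5 in BT-549 with an interaction of -2.22 ± 0.32 (SE; adjusted p = 2.44e-08). In the opposite direction, the promoter of PARD6B, a subunit of the PAR polarity complex, went from 99, 90.1 and 91.8 to 243, 262 and 215 in BT-549, with 188, 184 and 159 and 152, 157 and 148 in DU-145. Its interaction was 1.57 ± 0.17 (SE; adjusted p = 8.36e-13), or 1.02 with the correction. Hippo genes had 12 of 87 called below and 7 above, integrins, laminins and collagens 15 of 109 and 5, and ERBB receptors and EGF ligands 7 of 49 and 2. NOTCH genes had 7 of 45 below and 4 above, EGR and ERK feedback genes 8 of 54 and 5, and AP-1 factor genes 5 of 38 and 1. The shares called below in these 6 lists lay between 13.2% and 15.6%, against 12.6% of all regions within 100 kb. Those called above lay between 2.63% and 9.26%, against 5.66%.

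Of all regions within 100 kb of a TSS, 12.6% were called below and 5.66% above, or 9.59% and 3.77% with the correction. Axon guidance genes had 6 of 89 regions called below (6.74%) and 5 above (5.62%). Epithelial junction genes had 7 of 58 in each direction (12.1%), among them a bin near CLDN4, a claudin, that went from 45.3, 57.1 and 47.8 to 142, 144 and 179 in BT-549 and from 190, 174 and 161 to 214, 226 and 209 in DU-145. Its interaction was 1.34 ± 0.20 (SE; adjusted p = 7.21e-08), and 0.82 with the correction. BAF and PBAF subunit genes had 7 of 62 below (11.3%) and 5 above (8.06%), and none of the 5 was called with the correction. WNT genes had 11 of 86 below (12.8%) and 6 above (6.98%), and cell cycle genes 6 of 63 (9.52%) and 4 (6.35%). Pluripotency and stem cell genes had 8 of 57 below (14%) and 7 above (12.3%, against 5.66%). With the correction these were 5 (8.77%) and 6 (10.5%). The bin chr8:127668901-127669000, 66484 bp upstream of the TSS of the oncogene MYC, was among those above, with 109, 117 and 120 in BT-549 vehicle, then 298, 375 and 346 in BT-549 DOX, 257, 250 and 232 in DU-145 vehicle and 220, 195 and 192 in DU-145 DOX. Its interaction was 1.86 ± 0.15 (SE; adjusted p = 2.43e-18), or 1.23 with the correction.

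Further named regions of the lists opened in 1 line or lost their call on correction. At ATF3, a stress-induced partner of JUN, an intronic bin went from 24.3, 25.1 and 36.7 to 91.8, 77.1 and 75.2 in DU-145 and had 28.7, 21 and 17.3 and then 18.2, 4.52 and 14 in BT-549, an interaction of -2.38 ± 0.44 (SE; adjusted p = 8.79e-06). Near HES1, a NOTCH target, a bin 5602 bp downstream of the TSS opened in BT-549 from 89.4, 100 and 91.3 to 216, 183 and 180, while DU-145 went from 164, 154 and 157 to 139, 111 and 131. Its interaction of 1.37 was 0.87 with the correction and under the size for a call. The same held for the promoters of SPRY2, an ERK inhibitor (1.11 and 0.66), SKI, a TGF-beta corepressor (1.36 and 0.95), and SMARCA4, the BAF ATPase (1.20 and 0.94). Bins that opened in both lines by unequal amounts included those near WNT5B, with 1.86, 2.75 and 0 and then 26.9, 23.3 and 23.6 in DU-145 and 59.3, 50.2 and 49.1 and then 94.6, 138 and 118 in BT-549. Near NTN4, a netrin, the DU-145 effect was 4.28 and the BT-549 effect 0.68.

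At MUC1 itself no region was called. The bin nearest to its TSS, chr1:155187601-155187700, had an interaction of -0.12 (adjusted p = 0.931), and the better covered bin at chr1:155193501-155193600, 635 bp from a TSS, had 0.24 (adjusted p = 0.374). Coverage at this gene does not measure its RNA and does not check the silencing. At the bin nearest to the TSS of NOTCH1, a receptor, the interaction was 0.19 ± 0.27 (SE; adjusted p = 0.654), and at that of ARID1A, a BAF subunit, 0.11 ± 0.23 (SE; adjusted p = 0.767). EGR1, an immediate early transcription factor, went from 301, 309 and 346 to 242, 238 and 220 in DU-145 and from 262, 249 and 270 to 317, 304 and 294 in BT-549. Its interaction of 0.67 ± 0.14 (SE; adjusted p = 9.55e-05) was -0.03 (adjusted p = 0.902) with the trend correction, a value near 0. At the JUN promoter the interaction was 0.91 ± 0.15 (SE; adjusted p = 1.17e-06) with TMM and 0.31 (adjusted p = 0.118) with the correction. Near LY6E, an interferon-inducible surface protein, the bin next to the TSS had -0.30 ± 0.26 (SE; adjusted p = 0.438). The bin 1832 bp from the TSS went from a mean of 85.4 to 17.1 in DU-145 and from 33.1 to 18.8 in BT-549. Its interaction was 1.53 (adjusted p = 0.00962), or 1.58 with the correction. The bin 4432 bp from the TSS closed in DU-145 only with an interaction of 1.60 (adjusted p = 0.0342), from a mean of 11 to 3.95. The bin 7793 bp from the TSS closed in both lines with an interaction of -1.65 (adjusted p = 0.00234). That at 10893 bp closed in BT-549 only (-2.33, adjusted p = 0.0223) and was not called with the correction (adjusted p = 0.157).

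The genes and loci with most calls are the highest of 13803 genes and 2427 windows, and whether calls gather there was not tested. Of all regions within 100 kb of a TSS, 12.6% were called below and 5.66% above. A called region above lay near 1476 genes and one below near 2569, with both near 332 genes, and near 169 when only calls made both ways were counted. PPP1R3C, a glycogen-targeting subunit of protein phosphatase 1, had 8 of 11 regions called below (7 both ways), POU5F1B, a retrogene of POU5F1, 7 of 7 (6 both ways) and TRIM27, a RING finger protein, 7 of 12 (3 both ways). FRMD6, an upstream member of the Hippo pathway, had 6 of 7, all both ways. Reads within POU5F1B and its parent gene can be shared, and whether any of its 7 regions lies in that sequence was not checked. Called above were 4 of 6 regions of PADI3 and 4 of 16 of PPARA, a nuclear receptor of fatty acid metabolism, all both ways, and 4 of 7 of ARHGEF2 and of RAB11FIP4. BCAR3 had 3 regions above and 3 below among 22, and OSBPL9 3 above and 2 below among 9.

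In windows of 1 Mb, counted over calls made both ways, 448 of 2427 windows held both directions. Such calls numbered 992 above and 3366 below among all 31661 regions. At least 3 calls above were held by 77 windows and at least 3 below by 469. The windows with most calls above lay on chromosome 16 from 2000001 to 3000000 (10 of 44 regions, near PKD1, CCNF and PDPK1 among others), on chromosome 17 from 17000001 (8 of 27, near SREBF1, RAI1 and FLCN) and on chromosome 22 from 46000001 (7 of 39, near PPARA and WNT7B). Those with most calls below lay on chromosome 8 from 66000001 (13 of 39, near MYBL1 and VXN), on chromosome 7 from 22000001 (11 of 29, near IL6 and STEAP1B), on chromosome 5 from 132000001 (11 of 44, near IRF1, CSF2 and IL4) and on chromosome 9 from 115000001 (10 of 18, near TNC). The window on chromosome 14 from 51000001 held 8 of 17, near FRMD6 and GNG2. Windows follow the density of tested regions, and copy number of the lines was not analysed here.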

How the data were processed

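The authors aligned ATAC-seq fragments to GRCh38 (hg38) with BWA, removed duplicates with Picard and called peaks per library with MACS2 2.2.7.1 (MACS3 is also named in the submitters' processing notes). The deposited bin tables hold estimated counts, the fragment coverage averaged within each bin of 100 bp, not normalized for depth and made for each line separately. The deposited peak lists hold a fold enrichment ratio and the −log10 q-value, and were used for markers and peak numbers. Bin values were rounded and tested over all 31661 regions in edgeR 4.0.16 (R 4.3.3; quasi-likelihood, robust, TMM, 1 mean per group), with Benjamini-Hochberg adjustment over all regions. A minimum total of 10 per line removed no region. The trend correction used limma 3.58.1 loess offsets within each line, with 3 iterations on log2(value + 0.5). Alternatives were a GC correction, RLE, library totals, DESeq2 1.42.0, thinning, sums over regions, no filter, a replicate block and leaving out each library. Whether replicate numbers pair vehicle and DOX libraries is not known, and the main fit had no block. Regions were named by fixed rules: 4 per class with the largest interaction (mean scaled coverage of at least 20 in the higher group of a responding line, no overlap of its vehicle and DOX libraries, the same class with and without the correction, a coding TSS within 100 kb), up to 3 called regions per list with the smallest adjusted p, the 3 genes with most calls of 1 sign, and 6 genes the study turns on. Other interferon regions, genes with calls of both signs or above, and 1 Mb windows were chosen after their values were seen. The members, the 17 gene lists and the motifs were chosen with earlier results of these data known. The interferon count under each alternative was added after seeing the data. Genes and reference bases came from GENCODE on hg38. Some genes of the interferon and marker lists enter the counts but are not reported here by name. Counting intervals and floors cover counting error only.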

Additional observations from a re-analysis of the deposited data

Results flagged for a closer look

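At the named regions below the DOX effect differed between the lines by the interaction test (edgeR, adjusted p under 0.05), and the value in parentheses is the interaction, the BT-549 effect minus the DU-145 effect on the log2 scale. Groups of 3 libraries were not screened for outlying samples. Among regions named for their class, their number of calls or the study's genes, the BT-549 effect was lower near AOAH (-10.29), TAPT1 (-8.95), HUWE1 (-8.53), NUDT21 (-8.35), HLF (-7.50), TMIGD3 (-5.45), KLHDC7B (-4.64), PDE4B (-4.51), TEX48 (-4.47), PPP1R3C (-4.43), DUSP1 (-4.17), CLMP (-4.12), LRRC49 (-3.98), POU5F1B (-3.25) and TRIM27 (-1.05). It was higher near CRYGN (5.27), VPS13D (5.13), ACTN4 (4.14), BOD1L1 (4.04), SEMA4B (3.52), TG (3.49), PTP4A3 (3.36), CLINT1 (3.29), TGFBR2 (2.72), PADI3 (2.63), BZW1 (2.48), BCAR3 (2.46), JUN (0.91) and EGR1 (0.67).

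Among regions named from the gene lists, the BT-549 effect was lower near IRF1 (-5.58), ACTL6A (-4.42), RBPJ (-4.33), NFKBIZ (-3.93), TJP1 (-3.91), DUSP5 (-3.88), CDK6 (-3.70), MX1 (-3.62), NTN4 (-3.60), CXCL2 (-3.49), WWTR1 (-3.38), FOSL2 (-3.33), CDKN1A (-3.18), TNC (-3.03), YAP1 (-2.97), NOTCH2 (-2.85), NRG1 (-2.85), LTBP1 (-2.82), POU5F1 (-2.75), WNT5B (-2.52), ITGA5 (-2.48), ZEB2 (-2.43), ATF3 (-2.38), TP63 (-2.36), SMURF2 (-2.34), WNT2B (-2.27), RAC1 (-2.22), COL5A2 (-2.21), OCLN (-2.07), IL6 (-1.86), VIM (-1.64) and EGFR (-1.38). It was higher near AMOTL2 (2.69), JUN (2.63), SEMA4B (2.27), IFI44 (2.06), ITGA3 (2.04), NRP1 (1.91), MYC (1.86), MARK2 (1.70), PARD6B (1.57), ERRFI1 (1.47), WNT7B (1.38), HES1 (1.37), SKI (1.36), CLDN4 (1.34), CDKN1B (1.33), SMARCA4 (1.20), ARID2 (1.14) and SPRY2 (1.11). A gene that appears again does so with another of its regions. Sizes at regions with an empty group depend on the prior count of the fit and are no bounds.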

How the results depend on the processing

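The calls above (1745) became 921 with library totals and 981 after thinning, and the calls below (4627) became 1588 after thinning, which left 26875 regions to test. Opening in DU-145 with closing in BT-549 (716) became 416 with the GC correction, 378 with DESeq2, 113 after thinning and 1293 with region sums. The reverse class (204) became 79 with the coverage trend correction, 56 with library totals and 53 after thinning. Responses in DU-145 only (1091) became 327 after thinning and 644 when the other line's 95% interval had to lie within -1 to 1, and those in BT-549 only (1192) became 491 after thinning. Interferon regions called below (31 of 73) became 19 of 73 with the GC correction and 7 of 45 after thinning. All calls below were 3472 and 1588 in these settings. Without 1 library each, the ranges were 1354 to 1872 above, 4261 to 4788 below, 530 to 737 and 80 to 242 for the opposite classes, 943 to 1125 for DU-145 only, 975 to 1220 for BT-549 only and 24 to 31 interferon regions. The reverse class fell to 80 to 88 without a BT-549 DOX library and 106 to 113 without a BT-549 vehicle library. The cause was not tested, other than the fewer fragments after thinning. No filter changed nothing. The EGR1 promoter (0.67) was near 0 with the coverage trend correction (-0.03, adjusted p = 0.902).

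Deviations from the group means of same-numbered vehicle and DOX libraries of a line correlated at -0.0205 to 0.0597. Replicates differed by about counting error, so these correlations cannot show whether the numbers pair the libraries. With the replicate block the counts were 1735 above, 4596 below, 715 and 200 opposite, 1099 in DU-145 only, 1173 in BT-549 only and 28 interferon regions.

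Of the named regions, 4 no longer had an adjusted p under 0.05 with the GC correction (EGR1 0.30, VIM -1.03, EGFR -0.63, TRIM27 -0.52), LY6E then had one, at a size under 1 (-0.80), and 18 lost it after thinning, where 13 were not tested. JUN at 4997 bp (1.87) lost it without BT-549 DOX replicate 3. At 1132 regions the BT-549 DOX libraries held at most 3 counts in all, too few to measure the size of a closing.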
